A study of Mus musculus with 63 samples.

Results

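The transcriptomes of the dentate gyrus (DG) and of the CA3 area were compared in non-lesioned wildtype cultures. The comparison was defined by the sample labels alone, as control libraries of C57BL/6 wildtype tissue from the 2 regions, which gives 4 DG and 2 CA3 libraries, 6 of the 63 samples of the series. Entorhino-hippocampal slice cultures, in which the entorhinal cortex stays connected to the hippocampus, were prepared from C57BL/6J (Synpo+/+) mice of either sex at postnatal day 3 to 5 and kept for at least 18 days in vitro. For each library, the DG or the CA3 area of 1 culture was cut out with a scalpel, so every library is a piece of mixed tissue that holds neurons, glia and vessels. The cultures of these 6 libraries received no entorhinal cortex lesion (ECL). The labels do not say whether a DG and a CA3 library came from the same culture. Beside them stand 7 DG and 6 CA3 control libraries from synaptopodin-deficient mice (B6.129-Synpotm1Mndl/Dllr, labelled Synpo-/-), raised in the same way, and the wildtype cultures with ECL (7 DG and 3 CA3).

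In the hippocampus, granule cells of the DG receive the perforant path from the entorhinal cortex and send their axons, the mossy fibers, to the proximal dendrites of CA3 pyramidal cells. The transcription factor Prox1 is made by granule cells and keeps their identity apart from that of CA3 neurons. At the mossy fiber synapse, C1q-like proteins secreted by granule cells bind neurexin 3 and kainate-type glutamate receptors, which CA3 pyramidal cells carry there.

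The 6 libraries held 14147174 to 25190705 counts over 55291 gene symbols. Levels are given as CPM, read counts relative to the library total, scaled by TMM factors, and folds as log2 differences, DG minus CA3, with their standard error (SE). A gene counted as called where its p from the edgeR quasi-likelihood test, after Benjamini-Hochberg adjustment over all genes, lay below 0.05. Of 25656 genes tested, 676 were higher in DG (2.63%) and 706 higher in CA3 (2.75%), together 5.39% of the genes tested. Before adjustment 4521 genes had a p below 0.05, beside 1283 that a share of 5% would give. Counts of list members below are to be read beside these shares over all genes. The median log2 difference over all genes tested was 0.02. The part of any 1 cell type in a bulk level is not known, since fewer cells of a type and less RNA per cell cannot be told apart in bulk tissue.

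**Figure D1:**
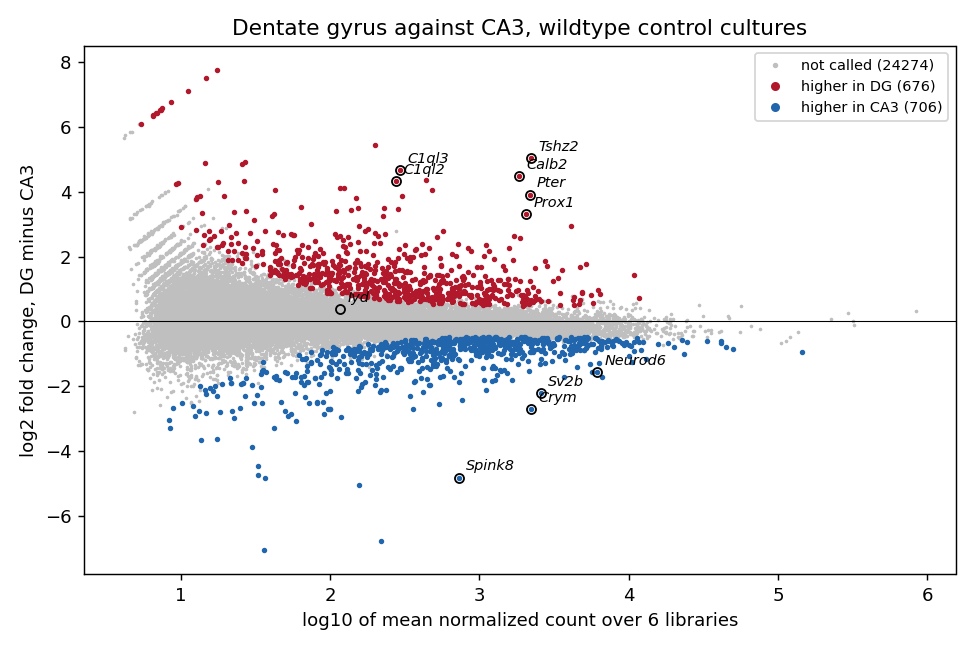
log2 fold change (DG minus CA3) against log10 of the mean normalized count for the 25656 genes tested, 1 point a gene, with the 676 genes called higher in DG in red, the 706 called higher in CA3 in blue, and named genes circled. Calls in DG reach larger differences (median 1.31) than calls in CA3 (median 0.87 in size), and Iyd lies among the genes not called.

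The genes higher in DG had larger differences and lower levels than those higher in CA3. The median size of the log2 difference was 1.31 in DG and 0.87 in CA3, and 150 and 65 genes exceeded a log2 difference of 2 in size. The median normalized count was 243 for calls in DG and 648 for calls in CA3, against 66.6 for all genes tested. Protein-coding genes made up 73.8% of the calls in DG and 91.9% of those in CA3, against 69.1% of the genes tested. The libraries also differed in the number of genes with counts, 41342 to 43289 in DG against 40028 and 38316 in CA3. DG replicate 2 had 41465 at the lowest library total, 14147174 counts. The part of this in the unlike sizes and levels of the calls was not tested. Of the 7562 genes with a mean normalized count over 300, 291 were higher in DG and 494 in CA3. The number of calls fell to 660 without CA3 replicate 2, 926 without CA3 replicate 1 and 918 without DG replicate 3.

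The labels were checked first on Prox1, Dsp and Iyd, a granule cell transcription factor, the desmosomal protein desmoplakin found in granule cells, and iodotyrosine deiodinase, used as a marker of CA3. Prox1 was at 19.0 and 14.3 CPM in the CA3 libraries and at 143, 153, 195 and 173 CPM in DG replicates 1 to 4. The groups did not overlap, which was so for 27.6% of all genes tested, and the log2 difference was 3.32 (SE 0.195, adjusted p 6.89e-07). Dsp gave 2.687 and 1.497 CPM in CA3 against 18.0, 21.4, 27.9 and 24.7 CPM in DG (log2 difference 3.46, SE 0.282, adjusted p 9.02e-06). For both genes DG replicate 1 was the lowest and DG replicate 3 the highest of the DG libraries. Iyd did not separate the regions. It was at 4.14 and 6.90 CPM in CA3 and at 5.00, 5.42, 8.31 and 9.92 CPM in DG, groups that overlap, with a log2 difference of 0.37 (SE 0.312, adjusted p 0.607). Among control libraries of the Synpo-/- label, however, Iyd was lower in DG (log2 difference -1.10, adjusted p 0.000317). Other CA3 markers below differed between the regions. Their lists were chosen with earlier results of these data known, so they are not an independent check of the labels.

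Promoter sequence is shown for 4 called genes picked as examples, a pair higher in DG (Prox1 and C1ql2) and a pair higher in CA3 (Sv2b and Neurod6). Each line gives the 250 bases before the RefSeq start, 5′ to 3′ on the gene's strand, in build GRCm38.p6. The windows are chr1:190170828-190171077 (minus strand), chr1:120340332-120340581 (plus strand), chr7:75309263-75309512 (minus strand) and chr6:55681264-55681513 (minus strand). Capitals mark CAGATG or its reverse complement CATCTG, an E-box of the type that NeuroD factors bind.
Prox1: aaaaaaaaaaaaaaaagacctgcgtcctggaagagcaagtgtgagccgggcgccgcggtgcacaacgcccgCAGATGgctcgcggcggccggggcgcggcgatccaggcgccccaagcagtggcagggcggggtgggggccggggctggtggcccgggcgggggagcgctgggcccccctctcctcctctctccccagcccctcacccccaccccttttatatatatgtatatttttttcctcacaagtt
C1ql2: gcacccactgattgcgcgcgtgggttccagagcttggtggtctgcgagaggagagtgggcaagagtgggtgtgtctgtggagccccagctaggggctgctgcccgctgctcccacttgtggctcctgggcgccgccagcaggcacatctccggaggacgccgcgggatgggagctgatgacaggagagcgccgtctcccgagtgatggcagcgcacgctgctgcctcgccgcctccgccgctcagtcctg
Sv2b: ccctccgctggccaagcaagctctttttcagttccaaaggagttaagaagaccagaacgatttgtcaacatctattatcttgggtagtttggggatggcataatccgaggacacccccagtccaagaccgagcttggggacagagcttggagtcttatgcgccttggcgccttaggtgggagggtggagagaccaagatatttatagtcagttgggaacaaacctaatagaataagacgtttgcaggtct
Neurod6: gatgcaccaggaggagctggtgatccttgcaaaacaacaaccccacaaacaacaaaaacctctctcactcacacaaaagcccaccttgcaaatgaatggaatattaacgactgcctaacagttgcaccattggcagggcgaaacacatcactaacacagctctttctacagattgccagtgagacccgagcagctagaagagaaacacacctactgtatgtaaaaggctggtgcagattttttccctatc
The motif was present once in the window of Prox1 and was not found in the other 3. Over both strands it was in 11.4% of the 395 windows of genes higher in DG and in 12.4% of the 525 windows of genes higher in CA3, beside 12.0% of 15901 genes tested with a window and 13.4% of all 20976 windows. These are counts of letters, and binding was not measured. The windows of Prox1 and C1ql2 held 20 CG dinucleotides each, those of Sv2b and Neurod6 7 and 3, and the median over the genes tested was 12. The 4 windows do not stand for their groups, since the median was 13 for genes higher in DG and 13 for genes higher in CA3.

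Most genes of the granule cell list were higher in DG. Of 20 granule cell markers, all tested, 16 were higher in DG and 1 lower, with a median log2 difference of 1.91. C1ql2, a synapse organizer released by granule cells, was at 1.45 and 0.846 CPM in CA3 and at 20.8, 21.8, 29.4 and 19.5 CPM in DG (log2 difference 4.32, SE 0.296, adjusted p 2.49e-06). Every DG library was far above both CA3 libraries. Calb1, the calcium buffer calbindin, reached 19.8 and 28.9 CPM in CA3 and 146, 136, 171 and 128 CPM in DG (2.57, SE 0.193, adjusted p 3.87e-06). Dgkh, a diacylglycerol kinase, differed by 2.93 (SE 0.195), the ion channel gene Trpc6 by 2.27 (SE 0.191) and Stxbp6, a relative of syntaxin-binding proteins, by 1.89 (SE 0.161). The transcription factor Bcl11b differed by 1.94 (SE 0.175) and Rfx3, a regulator of cilium genes, by 1.70 (SE 0.175). Ablim3, Fam163b, Dock10, Glis3, Tdo2, Plk5 and Gabrd were called as well, with log2 differences from 1.16 for Glis3 to 2.52 for Ablim3. The call of Plk5 was lost without CA3 replicate 1, CA3 replicate 2, DG replicate 1 or DG replicate 3.

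The exceptions were Lct, Pcdh8, Smad3 and Il16. Lct (0.63, adjusted p 0.721), Pcdh8 (0.52, adjusted p 0.0930) and Smad3 (0.30, adjusted p 0.309) were not called. Il16, an interleukin gene also used as a granule cell marker, went the other way, with 31.4 and 20.2 CPM in CA3 and 8.19 to 16.6 CPM in DG (-0.94, SE 0.248, adjusted p 0.0400). It shares 1202 exonic bases with Stard5 on the opposite strand, and unstranded counts cannot tell them apart. The call of Il16 was lost without DG replicate 1, DG replicate 3 or CA3 replicate 1.

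**Figure D2:**
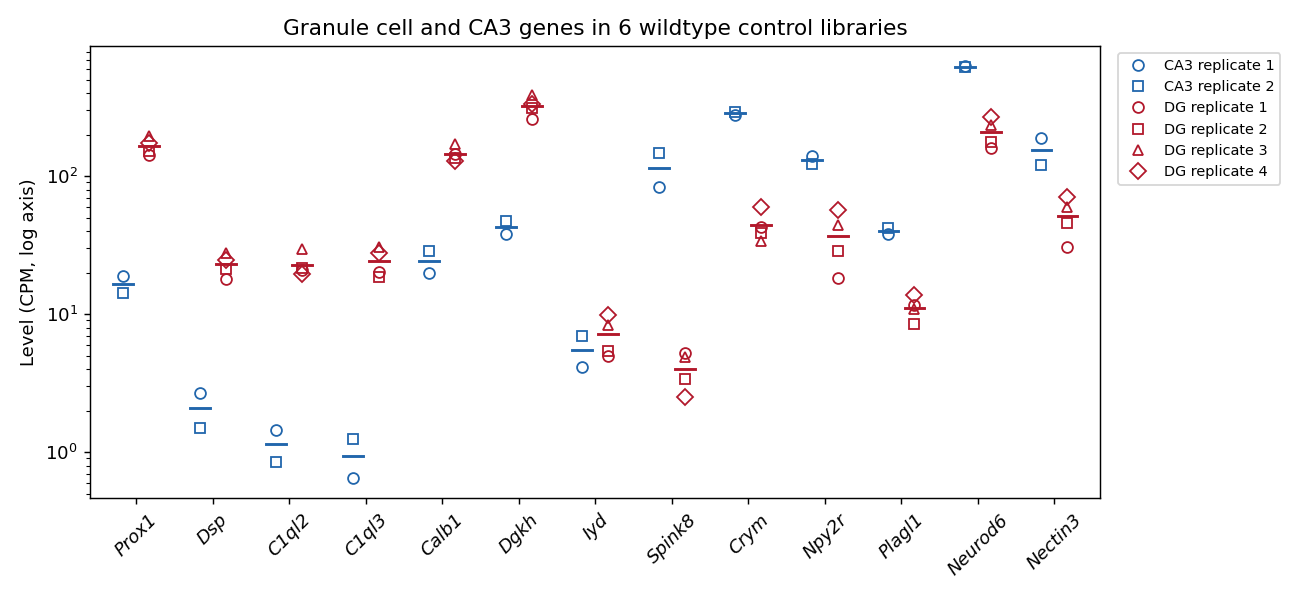
Level of 13 genes in each of the 6 wildtype control libraries (CPM, log axis), CA3 in blue and DG in red, 1 symbol a replicate and a bar at the group mean. Prox1, Dsp, C1ql2, C1ql3, Calb1 and Dgkh are higher in all 4 DG libraries, Iyd overlaps, and Spink8, Crym, Npy2r, Plagl1, Neurod6 and Nectin3 are higher in both CA3 libraries.

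Genes of CA3 pyramidal cells showed the reverse. Of 16 CA3 markers tested, 11 were higher in CA3 and 0 higher in DG, with a median log2 difference of -0.996. Plagl1, a zinc finger transcription factor, was at 38.3 and 42.2 CPM in CA3 and at 11.6, 8.44, 10.9 and 13.7 CPM in DG (-1.84, SE 0.179, adjusted p 3.66e-05). Npy2r, the Y2 receptor of neuropeptide Y, was at 140 and 123 CPM in CA3 and at 18.1, 28.8, 44.4 and 56.4 CPM in DG (-1.83, SE 0.294, adjusted p 0.00176). The DG libraries thus spread over a wide range for Npy2r, with replicate 1 lowest and replicate 4 highest, and stayed below CA3 throughout. Nectin3, a cell adhesion gene, had the same order of the DG libraries, with 30.5, 46.0, 59.5 and 70.7 CPM against 190 and 121 CPM in CA3 (-1.59, SE 0.253, adjusted p 0.00168). Ociad2 (-1.57, SE 0.179), the proteoglycan gene Spock1 (-1.49, SE 0.162), the postsynaptic scaffold gene Homer3 (-1.47, SE 0.237), the pentraxin gene Nptx1 (-1.23, SE 0.192), the RNA-binding Elavl2 (-0.84, SE 0.135), Cpne4 (-1.02), Dkk3 (-0.66) and the kainate receptor gene Grik4 described below were called as well. Homer3 shares 874 exonic bases with Ddx49 on the opposite strand. Besides Iyd, Bok (-0.65, adjusted p 0.0529), Prss35 (-0.54, adjusted p 0.0683), Cdh24 (-0.17, adjusted p 0.872) and Coch (-0.02, adjusted p 0.976) were not called. The summed level of the CA3 markers was 2049 and 2140 CPM in CA3 and 760 to 1032 CPM in DG, and that of the granule cell markers 341 and 361 CPM in CA3 and 1236 to 1670 CPM in DG.

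The largest differences among well-measured genes were taken by rule, 12 in each direction with a mean normalized count over 300 and groups that do not overlap. In DG they were Tshz2, Calb2, Rxfp1, Slc17a6, Pter, Ipcef1, Prox1, Dgkh, Cntn4, Sema5a, Kitl and Calb1. Tshz2, a zinc finger transcription factor, was at 5.81 and 5.47 CPM in CA3 and at 272, 241, 142 and 84.0 CPM in DG (log2 difference 5.03, SE 0.449, adjusted p 1.94e-05). Calb2, the calcium-binding protein calretinin, was at 7.26 and 6.51 CPM in CA3 and at 175, 58.0, 149 and 232 CPM in DG (4.48, SE 0.458, adjusted p 5.69e-05). The order of the DG libraries differed between these genes, since replicate 4 was lowest for Tshz2 and highest for Calb2. Pter, a phosphotriesterase-related gene, was more even, with 9.88 and 13.7 CPM in CA3 and 141, 157, 217 and 194 CPM in DG (3.91, SE 0.230, adjusted p 6.89e-07). Rxfp1, a receptor of relaxin peptides, differed by 4.37 (SE 0.314), and Slc17a6, the vesicular glutamate transporter VGLUT2, by 4.05 (SE 0.320). Of the axon guidance and adhesion genes, Cntn4 differed by 2.80 (SE 0.215) and Sema5a by 2.63 (SE 0.192). Ipcef1, a partner of cytohesin exchange factors, differed by 3.87 (SE 0.278) and Kitl, the ligand of the Kit receptor, by 2.59 (SE 0.236).

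In CA3 the rule named Spink8, Crym, Dynlrb2, Strip2, Matn2, Ptgs2, Sv2b, Vegfd, Hs3st4, Mas1, Thsd4 and Cpne7. Spink8, a serine protease inhibitor gene, was at 82.9 and 147 CPM in CA3 and at 5.27, 3.41, 4.91 and 2.53 CPM in DG (-4.82, SE 0.259, adjusted p 6.89e-07). Crym, a thyroid hormone-binding crystallin, was at 279 and 294 CPM in CA3 and at 42.9, 39.0, 34.0 and 59.98 CPM in DG (-2.70, SE 0.182, adjusted p 2.19e-06). Sv2b, a glycoprotein of synaptic vesicles, was at 294 and 315 CPM in CA3 and at 73.6, 57.1, 56.5 and 75.4 CPM in DG (-2.21, SE 0.148, adjusted p 2.19e-06). For all 3 genes the lowest CA3 library exceeded the highest DG library several times over. Dynlrb2, a dynein light chain gene, and Matn2, a matrix protein gene, were less even within CA3, with 27.4 and 65.3 CPM for Dynlrb2 and 55.3 and 133 CPM for Matn2, and CA3 replicate 2 the higher of both. Their log2 differences were -2.69 (SE 0.264) and -2.44 (SE 0.248). Ptgs2, the inducible cyclooxygenase, differed by -2.30 (SE 0.350), the growth factor gene Vegfd by -2.19 (SE 0.237), the heparan sulfate sulfotransferase gene Hs3st4 by -2.12 (SE 0.195) and Mas1, a receptor of angiotensin peptides, by -1.95 (SE 0.173). Strip2 (-2.56, SE 0.184), Thsd4 (-1.95, SE 0.196) and the copine gene Cpne7 (-1.89, SE 0.212) complete the list.

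Genes of the mossy fiber synapse differed in both directions. Of 10 presynaptic and peptide genes, 3 were higher in DG and 2 higher in CA3. C1ql3, the paralog of C1ql2, was at 0.653 and 1.24 CPM in CA3 and at 20.2, 18.7, 30.7 and 28.0 CPM in DG (4.66, SE 0.334, adjusted p 2.73e-06). Per kilobase of exon, the DG level of C1ql2 was 11.4 RPKM and that of C1ql3 9.63 RPKM. C1ql3 (chr2:13003457-13011806, minus strand) and Pter (chr2:12924041-13003455, plus strand, GRCm38) lie on opposite strands with 1 base between their ends, and 1547 exonic bases of C1ql3 are shared with an antisense transcript. Slc30a3, the vesicular zinc transporter ZnT3, was at 4.36 and 4.69 CPM in CA3 and 6.08 to 10.8 CPM in DG (1.03, SE 0.264, adjusted p 0.0352). Bdnf (-0.75, adjusted p 0.0194) and Nrxn3 (-0.56, adjusted p 0.0247), encoding a neurotrophin and neurexin 3, were higher in CA3. The calls of Slc30a3, Nrxn3 and Bdnf were all lost without CA3 replicate 2, those of Slc30a3 and Nrxn3 also without CA3 replicate 1, DG replicate 1 or DG replicate 3, that of Slc30a3 without DG replicate 2, and that of Nrxn3 without DG replicate 4. Of 7 kainate receptor genes, the high-affinity subunit gene Grik4 (-0.97, SE 0.190, adjusted p 0.00681) and the auxiliary subunit gene Neto1 were higher in CA3 and the other 5 were not called. The call of Grik4 was lost without CA3 replicate 2. Neto1 was at 513 and 350 CPM in CA3 and at 125, 156, 162 and 214 CPM in DG (-1.39, SE 0.193, adjusted p 0.000591), with no overlap. Of 15 genes of mossy fiber guidance and adhesion, 1 was called, Nectin3.

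Of 10 AMPA and NMDA receptor genes, 0 were called by edgeR and 3 by DESeq2. By edgeR 3 had an unadjusted p under 0.05, beside 4521 of all 25656 genes tested. These 3 were Gria1 (-0.49, adjusted p 0.0672), Grin2a (-0.48, adjusted p 0.0882) and Grin2b (-0.41, adjusted p 0.0988). Of 7 metabotropic glutamate receptor genes, Grm2 and Grm8, presynaptic receptors that lower transmitter release, were higher in DG. Grm2 was at 2.25 and 1.63 CPM in CA3 and at 14.95, 15.4, 13.7 and 9.92 CPM in DG (2.80, SE 0.276, adjusted p 4.21e-05), and Grm8 differed by 2.33 (SE 0.372, adjusted p 0.00172), with DG replicate 1 far above the others. Of 12 GABA-A receptor genes, 3 were higher in DG and 2 in CA3. Gabrd, whose subunit forms extrasynaptic receptors in granule cells, differed by 2.12 (SE 0.369) and Gabrb2 by 1.02 (SE 0.174). Gabra5 (-0.95, SE 0.200) and Gabrb1 (-0.56, SE 0.134) were higher in CA3. Without CA3 replicate 1 the calls of Gabra5 and Gabrb1 were lost, and without CA3 replicate 2, DG replicate 1 or DG replicate 3 that of Gabrb1.

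Voltage-gated channel genes likewise went both ways. Of 18 potassium and HCN channel genes, 3 were higher in DG and 4 in CA3. Kcnq5, a subunit of the M-current channel, was at 207 and 147 CPM in CA3 and at 39.5, 54.7, 49.3 and 59.5 CPM in DG (-1.80, SE 0.172, adjusted p 3.29e-05). Its relative Kcnq3 had a smaller difference (-0.48, adjusted p 0.0392), and its call was lost when any library but DG replicate 2 was left out. Kcna1, encoding the Kv1.1 subunit, was lower in DG (-1.03, SE 0.138), while its beta subunit gene Kcnab1 was higher (1.16, SE 0.159), as were Kcna4 (0.75, SE 0.149) and Kcnb2 (0.82, SE 0.183). The call of Kcna4 was lost without CA3 replicate 1 and that of Kcnb2 without CA3 replicate 2.

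**Figure D3:**
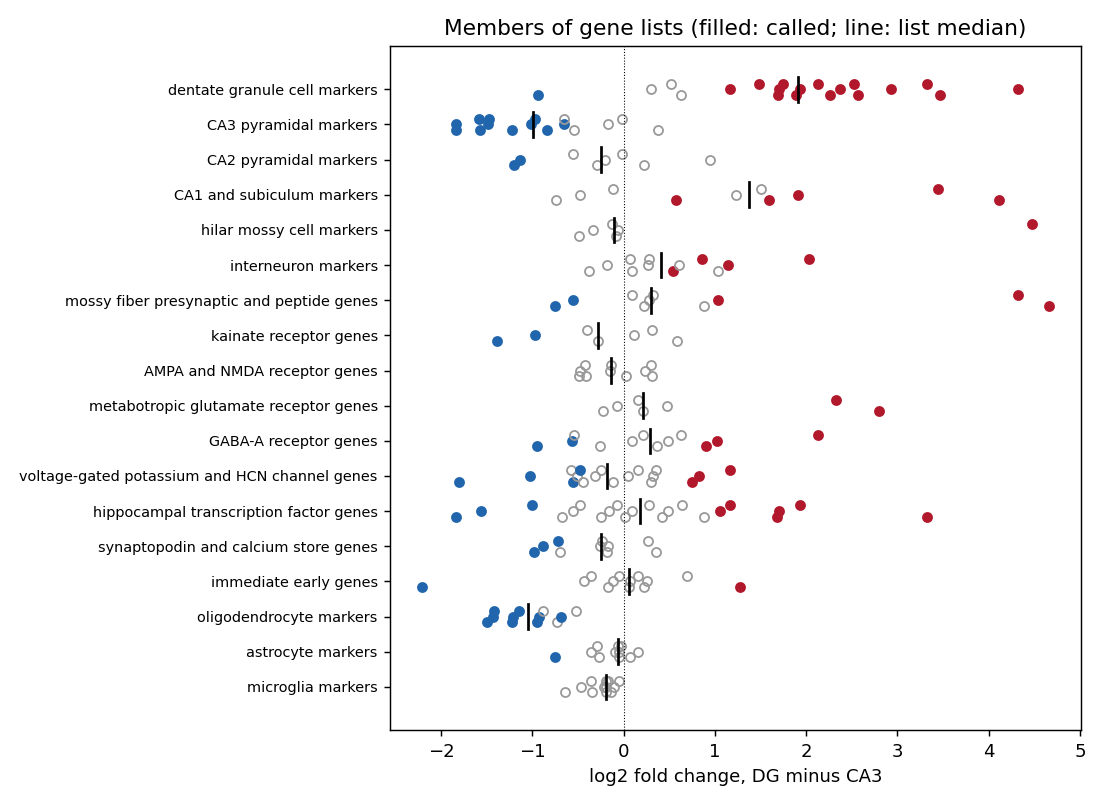
log2 fold change (DG minus CA3) of the members of 18 gene lists, 1 point a gene, filled in red (higher in DG) or blue (higher in CA3) where called and open where not, with a black line at each list's median. Granule cell markers lie mostly to the right (median 1.91), CA3 and oligodendrocyte markers to the left (medians -0.996 and -1.05), and receptor and channel lists on both sides of 0.

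Of 22 hippocampal transcription factor genes, 6 were higher in DG and 3 in CA3. Neurod6, a bHLH factor of pyramidal neurons, was at 624 and 620 CPM in CA3 and at 160, 176, 237 and 269 CPM in DG (-1.56, SE 0.182, adjusted p 0.000152). The mineralocorticoid receptor gene Nr3c2 was lower in DG (-1.01, SE 0.205, adjusted p 0.00851). Mef2c, an activity-regulated factor, was at 108 and 109 CPM in CA3 and at 427, 397, 309 and 253 CPM in DG (1.68, SE 0.202, adjusted p 0.000190), and Tbr1 was higher in DG (1.06, SE 0.197). Without CA3 replicate 2 the calls of Nr3c2 and Tbr1 were lost. Zbtb20, which marks hippocampal excitatory neurons, was at 1546 and 1531 CPM in CA3 and 845 to 1261 CPM in DG (-0.48, adjusted p 0.124).

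Synpo, which encodes synaptopodin, was not called between the regions. It was at 28.5 and 28.1 CPM in CA3 and at 20.9, 25.4, 27.1 and 26.1 CPM in DG (-0.19, SE 0.154, adjusted p 0.601), so that both CA3 libraries lay slightly above all 4 DG libraries. Among control libraries of the Synpo-/- label, however, Synpo was called higher in DG (log2 difference 0.46, SE 0.104, adjusted p 0.00272). Of 10 genes of synaptopodin and the calcium store, 3 were lower in DG. They were Stim2, a calcium sensor of the endoplasmic reticulum (-0.98, SE 0.170, adjusted p 0.00312), the ryanodine receptor gene Ryr3 (-0.89, SE 0.142, adjusted p 0.00172) and the calcium pump gene Atp2a2 (-0.72, SE 0.129, adjusted p 0.00402). Ryr3 gave 82.3 and 71.9 CPM in CA3 and 36.8 to 47.6 CPM in DG. It shares 916 exonic bases with Aven on the opposite strand. Among 13 immediate early genes, Arc was higher in CA3, with 6.10 and 7.74 CPM against 1.85, 1.67, 1.25 and 1.17 CPM (-2.21, SE 0.288, adjusted p 0.000360), and Btg2 higher in DG (1.27, SE 0.224, adjusted p 0.00350). The other 11 were not called.

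The pieces of tissue also differed in genes of other cells. Of 12 oligodendrocyte markers, 9 were higher in CA3, with a median log2 difference of -1.05. The myelin gene Mobp was at 132 and 252 CPM in CA3 and at 96.4, 93.7, 87.2 and 53.8 CPM in DG (-1.21, SE 0.240, adjusted p 0.00723), and Opalin, another myelin gene, at 37.9 and 80.0 CPM and at 16.2 to 28.3 CPM (-1.43, SE 0.250, adjusted p 0.00324). CA3 replicate 2 was the highest library for both, and the calls of both were lost without it. Without it 1 of the 12 markers was called (median -0.65), with all 8 regional groups in 1 fit 4 were called, and in that fit without the lesioned library labelled DG replicate 5, whose Prox1 lies at the CA3 level, 6 were called. The summed level of the list was 1638 and 2518 CPM in CA3 and 694 to 1184 CPM in DG. Of 11 astrocyte markers 1 was called, S100b (-0.76, adjusted p 0.0182), and that call was lost without CA3 replicate 2, DG replicate 1 or DG replicate 3. Of 12 microglia markers 0 were called by edgeR and 0 by DESeq2, and 1 had an unadjusted p under 0.05. Summed levels of both lists overlapped between the regions, with 5645 and 6886 CPM in CA3 and 5385 to 6119 CPM in DG for astrocytes, and 647 and 1075 CPM in CA3 and 620 to 828 CPM in DG for microglia. Of 5 oligodendrocyte precursor markers, Olig1 was higher in CA3 (-1.16, SE 0.191, adjusted p 0.00206). Of 8 endothelial and mural markers, the pericyte gene Rgs5 was higher in DG (1.30, SE 0.244, adjusted p 0.00543), a call lost without CA3 replicate 1. Of 6 fibroblast and choroid markers, Dcn was higher in DG (2.07, SE 0.345, adjusted p 0.00234), and Ttr of the choroid plexus was uneven there, with 55.8, 3.21, 8.57 and 19.5 CPM (2.79, adjusted p 0.0763). The part of these cells in the differences above was not tested.

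Of 10 markers of CA1 and the subiculum, 5 were higher in DG and 0 in CA3. Nts, the precursor of neurotensin, was at 0.653 and 0.521 CPM in CA3 and at 20.5, 14.4, 4.76 and 1.12 CPM in DG (4.11, SE 0.983, adjusted p 0.0240), and that call was lost without DG replicate 1, CA3 replicate 1 or CA3 replicate 2. Levels were highest in DG replicate 1 or 2 and lowest in DG replicate 4 for Nts, Tshz2, Slc17a6, Rxfp1 and Mef2c. That order was not particular to them, since Gabrd, Grm2, Mobp and Spink8 had it too. Within the list Mpped1 and Pou3f1 also had it. Ndst4 was highest in DG replicate 4, Fn1 lowest in DG replicate 3 and Wfs1 lowest in DG replicate 2. Ndst4 was more even, with 2.69 and 2.02 CPM in CA3 and 7.998 to 9.92 CPM in DG (1.91, SE 0.250, adjusted p 0.000382). Pou3f1 (1.59, adjusted p 0.0398) and Fn1 (0.57, adjusted p 0.0409) were also called, but in the absence of CA3 replicate 1, DG replicate 1 or DG replicate 2 neither was, and Pou3f1 also lost its call without DG replicate 3 and Fn1 without CA3 replicate 2 or DG replicate 4. Wfs1, a CA1 marker, was at 50.6 CPM in DG replicate 1 and at 7.03 to 8.85 CPM in the other DG libraries, beside 7.33 and 6.05 CPM in CA3. The summed level of the 10 markers was 97.2 and 125 CPM in CA3 and 140 to 260 CPM in DG, and without DG replicate 1, or without CA3 replicate 1, 2 of them were called. Whether neighbouring tissue took part in these differences was not tested.

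**Figure D4:**
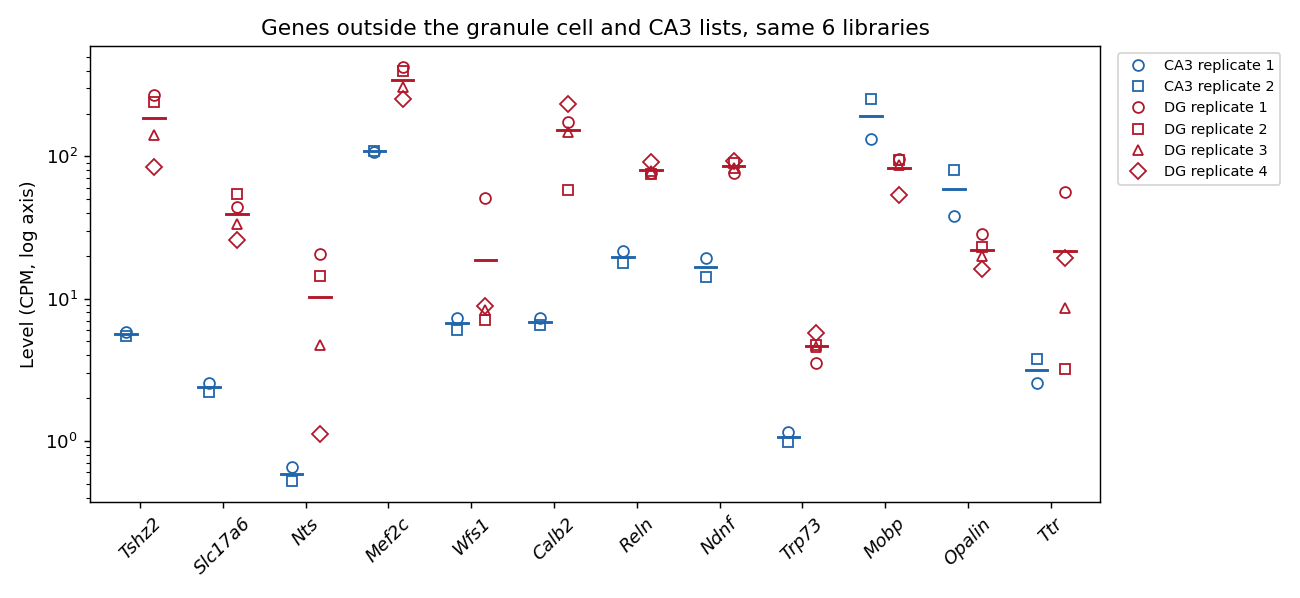
Level of 12 further genes in the same 6 libraries (CPM, log axis), with symbols and bars as in the plot of marker levels. Tshz2, Nts and Mef2c are lowest in DG replicate 4, Wfs1 and Ttr are highest in DG replicate 1, Reln, Ndnf and Trp73 lie close together in the 4 DG libraries, and Mobp and Opalin are highest in CA3 replicate 2.

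Of 12 interneuron markers, 4 were higher in DG and 0 in CA3, namely Reln, Vip, Npy and Gad1. Reln, the secreted glycoprotein reelin, was at 21.8 and 17.7 CPM in CA3 and at 76.7, 74.9, 78.6 and 91.7 CPM in DG (2.03, SE 0.162, adjusted p 7.29e-06). The 4 DG libraries lay close together for this gene. Vip (1.14, SE 0.243), Npy (0.86, SE 0.201) and the GABA-synthesizing enzyme gene Gad1 (0.54, SE 0.146) differed less, and the list had 1 call without CA3 replicate 2 and 2 without CA3 replicate 1, DG replicate 1 or DG replicate 3. Reln and Calb2 are also made by Cajal-Retzius cells, which lie along the hippocampal fissure next to the DG molecular layer. Their part in these levels was not tested. Further genes known from these cells were looked up after the values were seen. Ndnf was at 19.2 and 14.1 CPM in CA3 and at 76.9, 90.5, 83.1 and 92.2 CPM in DG (2.36, SE 0.173, adjusted p 2.99e-06), and Trp73 at 1.16 and 0.976 CPM and at 3.54, 4.75, 4.6003 and 5.69 CPM (2.11, SE 0.339, adjusted p 0.00175). Lhx1 was called (1.71, SE 0.460, adjusted p 0.0457), though not when any library but DG replicate 2 was left out, and Lhx5 was not (1.69, SE 0.649, adjusted p 0.177). Of 6 markers of hilar mossy cells, 1 was called, Calb2, and the other 5 had log2 differences from -0.48 to -0.06. Of 8 CA2 markers, Amigo2 (-1.20, SE 0.195) and Necab2 (-1.14, SE 0.152) were higher in CA3. Of 11 genes of neurogenesis and proliferation, Sox11 was higher in DG (1.05, SE 0.186, adjusted p 0.00358) and Cd24a higher in CA3 (-1.07, SE 0.210, adjusted p 0.00697). The call of Sox11 was lost without CA3 replicate 1 and that of Cd24a without CA3 replicate 2.

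The same regional contrast was then read in libraries that the wildtype comparison does not use. Synpo itself was not lower in the control libraries labelled Synpo-/-, with 31.5 to 50.4 CPM (median 41.3) in CA3 and 42.5 to 71.5 CPM (median 52.3) in DG, beside 26.7 and 26.7 CPM and 19.7 to 25.3 CPM in wildtype on the same scale, so the genotype rests on the labels. In these 13 libraries 5467 of 21408 genes were called (25.5%), 2797 higher in DG and 2670 higher in CA3. Of the 1382 genes called in wildtype, 1353 were tested there, 1339 had the same sign, and 1207 were called in the same direction, which is 87.3% of the wildtype calls and 22.1% of the calls in Synpo-/-. None was called in the opposite direction (0 of 1353). The shares were 90.4% for genes higher in DG and 84.4% for genes higher in CA3. All 12 genes named by the rule in each direction were among them. Of the granule cell markers 18 of 20 were higher in DG there, and of the CA3 markers 14 of 16 were higher in CA3, with medians of 2.21 and -1.09, and all 12 oligodendrocyte markers were higher in CA3.

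**Figure D5:**
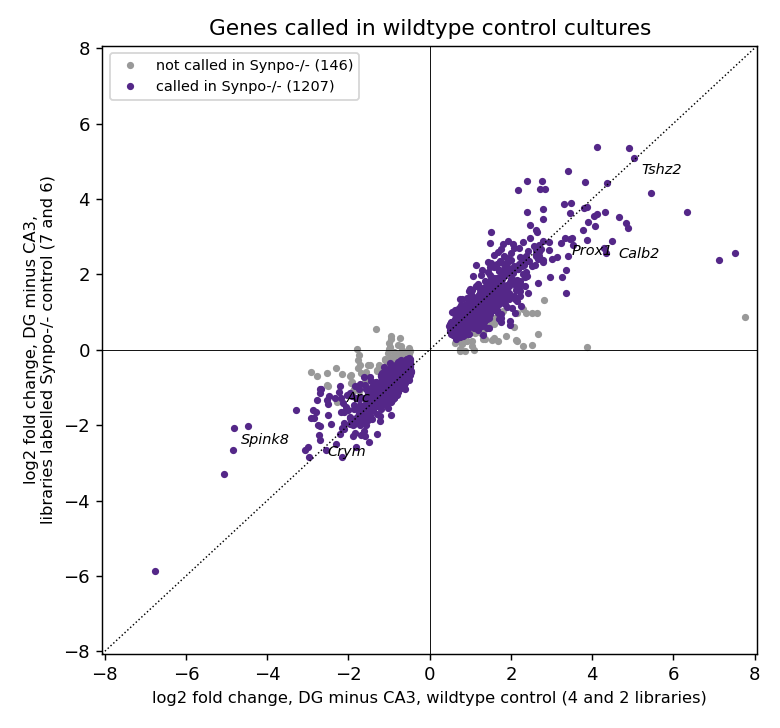
log2 fold change (DG minus CA3) in libraries labelled Synpo-/- against that in wildtype control libraries, for the 1353 genes called in wildtype and tested in both, with the 1207 called in Synpo-/- in purple, the other 146 in gray and the line of equal values dotted. Most points lie near the line, and Spink8 and Calb2 have smaller differences in Synpo-/-.

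Whether the regional difference itself differed between genotypes was tested as an interaction. None of 28235 genes was called (0 by edgeR and 0 by DESeq2), and 1237 had an unadjusted p under 0.05 (5% of the genes is 1412). In simulated counts, this fit called 36.5% of the genes given a log2 change of 1 and 72.1% of those given 2. An absent call therefore does not show that the regional difference was equal in both genotypes. Spink8 had a log2 difference of -4.82 in wildtype and -2.07 in Synpo-/- (interaction -2.65, SE 0.994, unadjusted p 0.0134, adjusted p 1.00). Iyd had 0.37 and -1.10 (interaction 1.56, SE 0.420, unadjusted p 0.00105, adjusted p 1.00) and Calb2 4.48 and 2.87 (interaction 1.69, SE 0.718, adjusted p 1.00). Synpo had -0.19 and 0.46 (interaction -0.56, SE 0.211, unadjusted p 0.0135). None of these differences passed the correction. The interaction of region and lesion within wildtype cultures, which uses the same 6 control libraries, gave 0 of 27783 genes by edgeR and 10 by DESeq2. By edgeR 1240 had an unadjusted p under 0.05 (5% of the genes is 1389). In simulated counts, the lesion fit called 15.6% of the genes given a log2 change of 1 and 72.5% of those given 2. An absent call there does not show an equal regional difference either. Dynlrb2 had an interaction of -2.56 (unadjusted p 5.84e-05, adjusted p 0.541). The lesioned library labelled DG replicate 5 had Prox1 at 15.7 CPM, beside 176 to 223 CPM in the other 6 lesioned DG libraries and 12.7 to 17.6 CPM in lesioned CA3. Without it 3 genes were called. For each, the DG minus CA3 log2 difference in lesioned cultures was subtracted from that in control cultures. This gave 1.56 for Ier3 (adjusted p 0.0165), -1.27 for Aif1 (adjusted p 0.0165) and -1.03 for Abca1 (adjusted p 0.0190).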

How the data were processed

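Gene counts of 6 regional libraries, 4 of wildtype control DG and 2 of wildtype control CA3, were taken as the authors deposited them, as raw counts per gene symbol. The submitters' processing notes name cutadapt 3.5, STAR 2.7.8a and featureCounts 2.0.1, and the study's methods describe unstranded counting on a GENCODE mouse annotation, so overlapping genes on opposite strands share reads. RNA came from 1 piece of tissue per library and was amplified by PCR before sequencing, so counts are not single molecules. Low counts were removed with filterByExpr, libraries were scaled by TMM, and regions were compared with the quasi-likelihood test of edgeR 4.0.16 in R 4.3.3, with Benjamini-Hochberg adjustment over all genes tested and a threshold of 0.05. The fits were tested on simulated data. Genes were named as the 12 with the largest difference in each direction among called genes with a mean normalized count over 300 and groups that do not overlap, leaving out symbols that begin with Gm and a number or end in Rik, together with the members of the lists. The members and lists were chosen with earlier results of these data known. Nothing in the labels says that replicates came from separate animals, so p-values measure the spread between these libraries. Alternatives were DESeq2 1.42.0, RLE size factors, no filter, a limit at 300 mean normalized counts (p-values unchanged), limma 3.58.1 (voom), a gene length trend, all 8 regional groups in 1 fit (also without lesioned DG replicate 5, added after seeing the data), a replicate block and each library left out. Promoter windows are RefSeq's. Some list members that entered the counts are not reported here by name. Immunoprecipitation and input libraries were not used here.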

Additional observations from a re-analysis of the deposited data

Results flagged for a closer look

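Within the 4 DG control libraries, 4 of 107 genes and 1 of 24 list sums had 1 library far from the other 3, where chance sets apart about 1 in 20. Grm8 was at 15.5 CPM in DG replicate 1 and at 7.20 to 7.70 CPM in the others. Wfs1 was at 50.6 CPM in DG replicate 1 and at 7.03 to 8.85 CPM in the others. The summed fibroblast and choroid markers were at 128.8 CPM in DG replicate 1 and at 40.6 to 55.6 CPM in the others. Kcnab1 was at 121.9 CPM in DG replicate 2 against 98.6 to 101.2 CPM. Fn1 was at 52.8 CPM in DG replicate 3, below the 67.6 to 69.8 CPM of the others.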

How the results depend on the processing

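The count of 1382 regional calls became 785 when only genes above 300 mean normalized counts were kept, at unchanged p-values, and 692 with a replicate block (407 higher in DG and 285 in CA3). It ranged from 660 to 1466 with 1 of the 6 libraries left out. Under the other settings it ran from 1104, with all 8 regional groups in 1 fit, to 1811. The fit of 8 groups holds the lesioned library labelled DG replicate 5, whose Prox1 lies at the CA3 level, and without that library, a setting chosen after seeing the data, it gave 1565 calls. The split was 618 higher in DG and 738 in CA3 with RLE size factors, 747 and 930 with DESeq2, and 503 and 714 with voom. The labels do not tie replicate numbers to a shared animal or day, and DG replicates 3 and 4 have no CA3 partner. Deviations of same-numbered libraries from their group mean correlated at -0.18 and -0.38 over the 2 pairs. The 2 CA3 libraries deviate from their own mean by equal and opposite amounts, so these correlations cannot tell whether replicates are paired. The genotype interaction gave 1 gene without the filter, and the lesion interaction 10 with DESeq2, 1 without the filter and 0 to 3 with 1 library left out. The cause of these changes was not tested. Of 107 genes followed, 89 were called, 56 of them under each of the 13 alternatives that refit the contrast and 60 under each but the block, and 0 of the called genes changed sign. Among genes not called, Iyd was at -0.0416 with the replicate block, and with 1 library left out Lct ranged from -0.1817 to 2.4343, Coch from -0.1029 to 0.0232 and Cdh24 from -0.4089 to 0.1047. Leaving out 1 of the 2 CA3 libraries leaves 1, which is then assumed to vary like the DG libraries.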
